A study of Danio rerio with 15 samples.

Results

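Sox and Fox genes encode 2 families of transcription factors, and this account follows 40 of them in zebrafish (Danio rerio) melanoma and skin. The members are the probe sets whose single gene symbol in the platform annotation begins with sox and a digit or with fox, a letter and a digit, without sox10 and foxd3. This rule gave 61 probe sets of 40 genes, out of 15502 probe sets and 8793 genes: 32 probe sets for 17 Sox genes and 29 for 23 Fox genes. The gene IDs of all 61 matched the RefSeq gene table, which changed 0 of their symbols.

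RNA was measured on 15 Affymetrix arrays, 1 per sample: 6 melanomas, 6 pieces of the skin bordering a melanoma (here mutant skin), and 3 pieces of wild-type skin. Melanoma and mutant skin came from the line mitf-BRAFV600E;p53-/-, in which the mitf promoter, active in pigment cells, drives a BRAF oncogene in fish without working p53. Wild-type skin came from the strain Tu and was taken along the length of the flank. The fish were 4 to 8 months old, and the labels give no sex.

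Sox proteins bind the minor groove of DNA through an HMG box and bend it, often beside a partner factor. Fox proteins bind through a winged-helix fold, the forkhead domain. Both families set and keep cell identity: SoxE factors act in the neural crest and its pigment cells, SoxB1 factors in neural and stem cells, FoxA factors in endoderm, and several members are laid down in the egg.

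Values are on a log2 scale, each probe set against its own unstated reference, and therefore give differences between arrays but no absolute level. Precision is limited by the number of arrays: over the members, the standard error of a change had a median of 0.33 between melanoma and mutant skin and of 0.40 where wild-type skin was involved. A list of 24 measured oocyte genes, such as buc and zp3b, split the arrays: its level lay between 0.69 and 4.99 in 7 arrays (melanoma 6, wild-type skin 1 and 2, mutant skin 1, 2, 4 and 6), and between -3.48 and -1.90 in the other 8. The level of 6 measured melanocyte genes lay between 2.21 and 3.03 in melanoma 1 to 5, at 0.080 in melanoma 6, and between -2.42 and -0.37 in skin. The level of 24 keratinocyte genes, which mark epidermis, lay between -2.61 and -0.56 in the melanomas and above 0 in wild-type skin, with mutant skin 2 and 6 at -1.61 and -0.28. Skeletal muscle genes lay between -4.29 and -2.66 in melanoma 1 to 5, at 0.85 in melanoma 6 and between -0.16 and 3.03 in skin. In such bulk samples, fewer cells of a type and less RNA per cell cannot be told apart.

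The 61 probe sets fell into a few patterns. A tumour pattern held sox2, sox4a and sox5. A pattern that followed the oocyte level held sox19b, sox11b, foxh1, sox21a and foxm1. A looser pattern with higher values in some skin arrays held, among others, sox9b, foxc1b, foxa1 and foxb1a. In 28 probe sets the range over the 15 arrays was under 2 log2 units, and for 15 genes this was so in each of their probe sets. These 15 were sox1a, sox4b, sox8b, sox9a, sox17, sox21b, sox32, foxa2, foxb1b, foxd5, foxi1, foxk2a, foxk2b, foxl1 and foxn4. Of the 28, 21 had their lowest value in mutant skin 2, the array with the lowest median of all its probe sets (-0.55). The part of this array-wide shift in the flat probe sets was not tested.

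**Figure D1:**
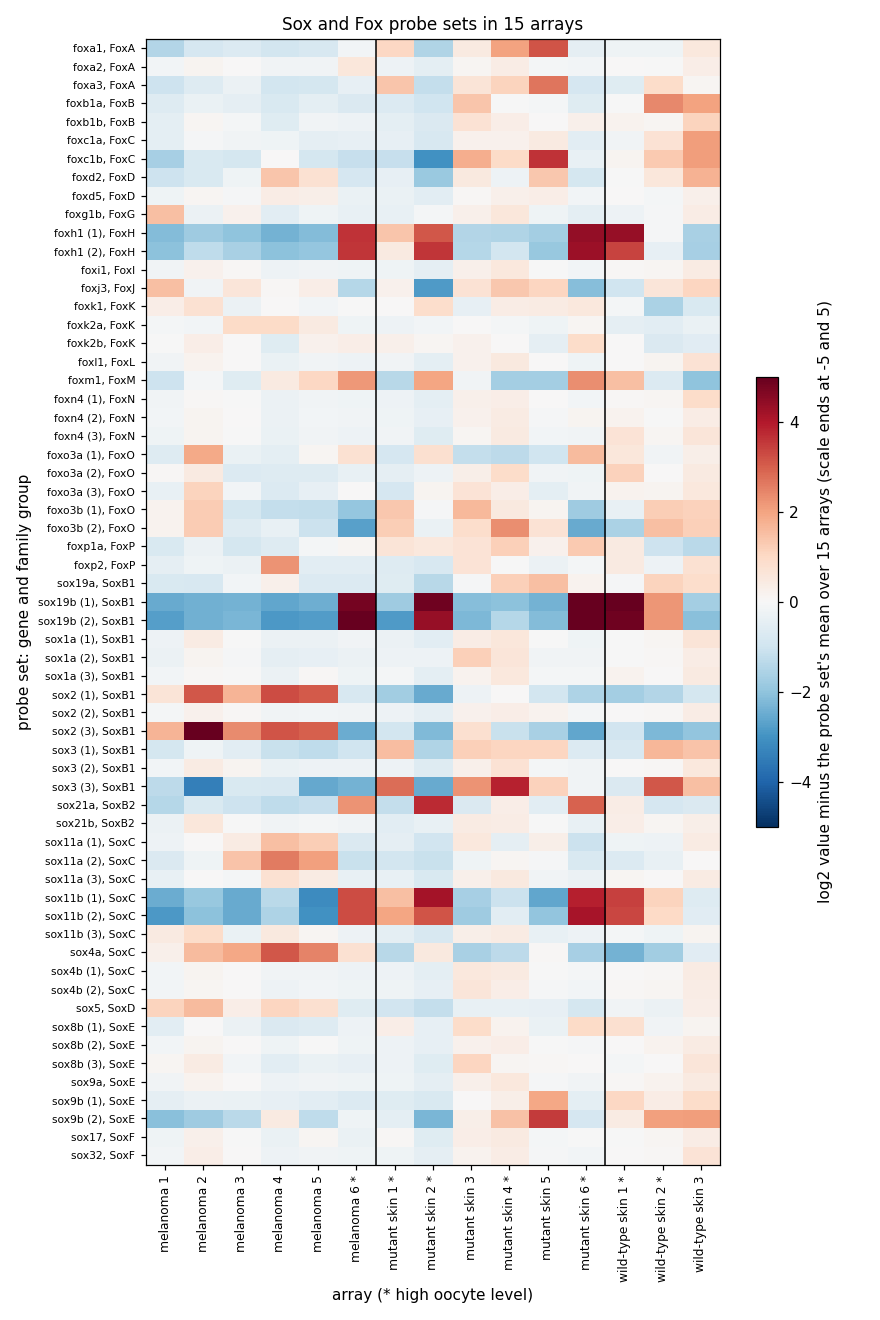
Heat map of the 61 member probe sets (rows, named by gene, with a number where a gene has several, and by family group) in the 15 arrays (columns), coloured by log2 value minus the probe set's mean over the 15 arrays. sox2 (1), sox2 (3), sox4a and sox5 are red in melanoma 1 to 5. In sox4a, melanoma 1 is paler than melanoma 6 and mutant skin 2. In sox5, melanoma 3 is about as pale as wild-type skin 3. Both rows of sox19b and foxh1 with sox11b (1) and sox11b (2) are red in melanoma 6, mutant skin 2 and 6 and wild-type skin 1.

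The first comparison asked how the families differ between melanoma and the skin beside it. Here 3 Sox genes rose in melanoma and 1 Fox gene fell. With a linear model fitted to all arrays with limma and Benjamini-Hochberg adjustment over all 15502 probe sets, 4 of 61 member probe sets rose (6.56%) and 1 fell (1.64%), while 56 did neither. The background over all probe sets was 6.44% raised and 4.35% lowered, so the shares of the families lie near or under it, and the result is about which members moved. The median change of the members was -0.10, beside 0.0032 over all probe sets.

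The gene sox2 encodes a SoxB1 factor of neural progenitors and stem cells. Its probe set 1, numbered as in the heat map, was at -0.14, 2.32, 0.93, 2.49, 2.31 and -1.57 in melanoma 1 to 6. In mutant skin 1 to 6 it was at -2.51, -3.30, -1.02, -0.74, -1.69 and -2.31, and in wild-type skin 1 to 3 at -2.48, -2.24 and -1.67. Melanoma 1 to 5 lay above all 9 skin arrays, and melanoma 6 lay among them. The log2 change against mutant skin was 2.99 ± 0.67 (standard error, 7.92-fold, adjusted p = 0.0121).

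Probe set 3 of sox2 was at 0.69, 4.09, 1.34, 2.13, 1.99 and -3.49 in melanoma 1 to 6. It was at -1.93, -3.20, -0.20, -2.13, -2.63 and -3.59 in mutant skin 1 to 6, and again 5 of the 6 melanomas lay above all 9 skin arrays. The change was 3.41 ± 0.97 (10.6-fold, adjusted p = 0.0359). Leaving out a single array ended this call for melanoma 1 to 5 and for every mutant skin array but the third, with adjusted p up to 0.0822. The oocyte level as a covariate ended it too (0.0902), as did a fit to the arrays of both groups alone (0.0599). Probe set 2, which by its name reads the same sequence cluster in the other direction, stayed between -1.48 and -0.66 in all 15 arrays, with a change of -0.04 ± 0.19 (adjusted p = 0.93). When the probe sets of each gene were averaged before the test, the change of sox2 was 2.12 (adjusted p = 0.0216).

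The gene sox4a encodes a SoxC factor, a group active in neural and mesenchymal progenitors. It was at -0.11, 1.2, 1.59, 2.75, 2.13 and 0.38 in melanoma 1 to 6. In mutant skin 1 to 6 it was at -1.74, 0.14, -1.99, -1.69, -0.28 and -2.04, and in wild-type skin 1 to 3 at -2.73, -2.08 and -0.95. Melanoma 2 to 6 lay above all 9 skin arrays, and melanoma 1 lay under mutant skin 2 alone. The change was 2.59 ± 0.54 (6.02-fold, adjusted p = 0.00829). Its copy sox4b stayed flat in both probe sets, with ranges of 1.04 and 1.02 over the 15 arrays and a change of -0.12 in each. By their names these read their cluster in opposite directions, as probe sets 2 and 3 of sox2 do.

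The gene sox5 encodes a SoxD factor, which lacks an activation domain of its own and in medaka is needed for yellow pigment cells. It was at 0.97, 1.44, 0.17, 0.91, 0.64 and -0.74 in melanoma 1 to 6. It was at -1.12, -1.32, -0.51, -0.53, -0.55 and -1.01 in mutant skin 1 to 6, and melanoma 1 to 5 lay above every one of these. Wild-type skin, at -0.30, -0.44 and 0.19, lay above all 6 mutant skin arrays. The change against mutant skin was 1.41 ± 0.33 (2.65-fold, adjusted p = 0.0153). The only probe set of sox5 carries the same direction letter in its name as sox2 probe sets 1 and 2. Which strand it reads was not tested.

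In melanoma 6, sox2 and sox5 were at skin values and sox4a was 0.38. In the same array the oocyte level was 4.29 and the melanocyte level 0.080. The part of the tissue mix of this array in the changes was not tested. As the values of melanoma 6 lie under the melanoma mean in all 4 probe sets, leaving it out could only raise the changes, to 3.51 for sox2 probe set 1, 4.33 for probe set 3, 2.78 for sox4a and 1.67 for sox5. Without the 7 arrays of high oocyte level, which keeps only mutant skin 3 and 5 of that group, they were 2.94, 3.46, 2.65 and 1.35, all past the threshold. With the oocyte level as a covariate they were smaller, at 2.01, 2.09, 2.25 and 0.93 (adjusted p = 0.0197, 0.0902, 0.0174 and 0.0264), and sox2 probe set 3 no longer passed.

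**Figure D2:**
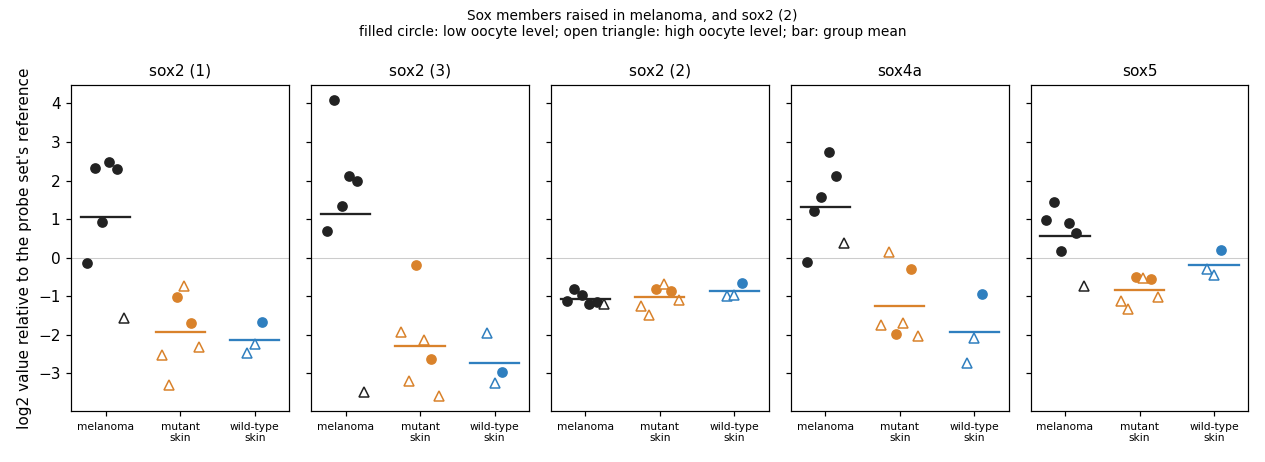
Log2 value relative to the probe set's reference (vertical axis) of the 3 sox2 probe sets, sox4a and sox5, with a point for each array, a bar for each group mean, and open triangles for arrays of high oocyte level. In sox2 (1) and sox2 (3) melanoma 1 to 5 lie above all skin arrays, while sox2 (2) stays between -1.48 and -0.66.

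The SoxC gene sox11a was high in some tumours only. Its probe set 2 was at 1.58, 2.75 and 2.2 in melanoma 3, 4 and 5 and at -0.58, -0.04 and -0.95 in melanoma 1, 2 and 6. Mutant skin lay between -0.95 and 0.28 and wild-type skin between -0.53 and 0.20, so 3 of 6 melanomas lay above all skin. The change was 1.15 ± 0.57 and did not pass (adjusted p = 0.23). The other 2 probe sets had changes of 0.71 ± 0.40 and 0.21 ± 0.27 and did not pass either. The same 3 tumours had the highest values of foxk2a, a forkhead gene of the FoxK class, at 0.96, 0.94 and 0.45, where mutant skin reached 0.10 and wild-type skin -0.36. The change of foxk2a was 0.42 ± 0.24 (adjusted p = 0.31).

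Single melanomas stood out for other members. The gene foxp2, a FoxP repressor known from the brain, was at 2.43 in melanoma 4 and between -0.34 and -0.03 in the other 5. The gene foxg1b, of the forebrain class FoxG, was at 1.2 in melanoma 1 and between -0.85 and -0.08 in the other 5. Neither changed past the threshold in a comparison of groups.

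The one member that fell against mutant skin was foxp1a, which encodes a FoxP repressor. It was at -0.87, -0.42, -1.0, -0.77, -0.23 and -0.01 in melanoma 1 to 6 and at 0.52, 0.40, 0.59, 1.07, 0.12 and 1.18 in mutant skin 1 to 6. All 6 melanomas lay under all 6 mutant skin arrays. Of the 61 member probe sets this was the only one without overlap in this comparison, beside 1.4% higher and 0.961% lower over all probe sets. The change was -1.2 ± 0.32 (adjusted p = 0.0273). Wild-type skin was at 0.33, -1.16 and -1.47, the last pair lower than any melanoma, and the change against wild-type skin was 0.21 ± 0.39 (adjusted p = 0.73). Leaving out melanoma 1, 3 or 4, or mutant skin 1 or 4, ended the call (adjusted p up to 0.0631), as did a fit with the oocyte covariate (0.0644) and without the 7 arrays of high oocyte level (0.0599).

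**Figure D3:**
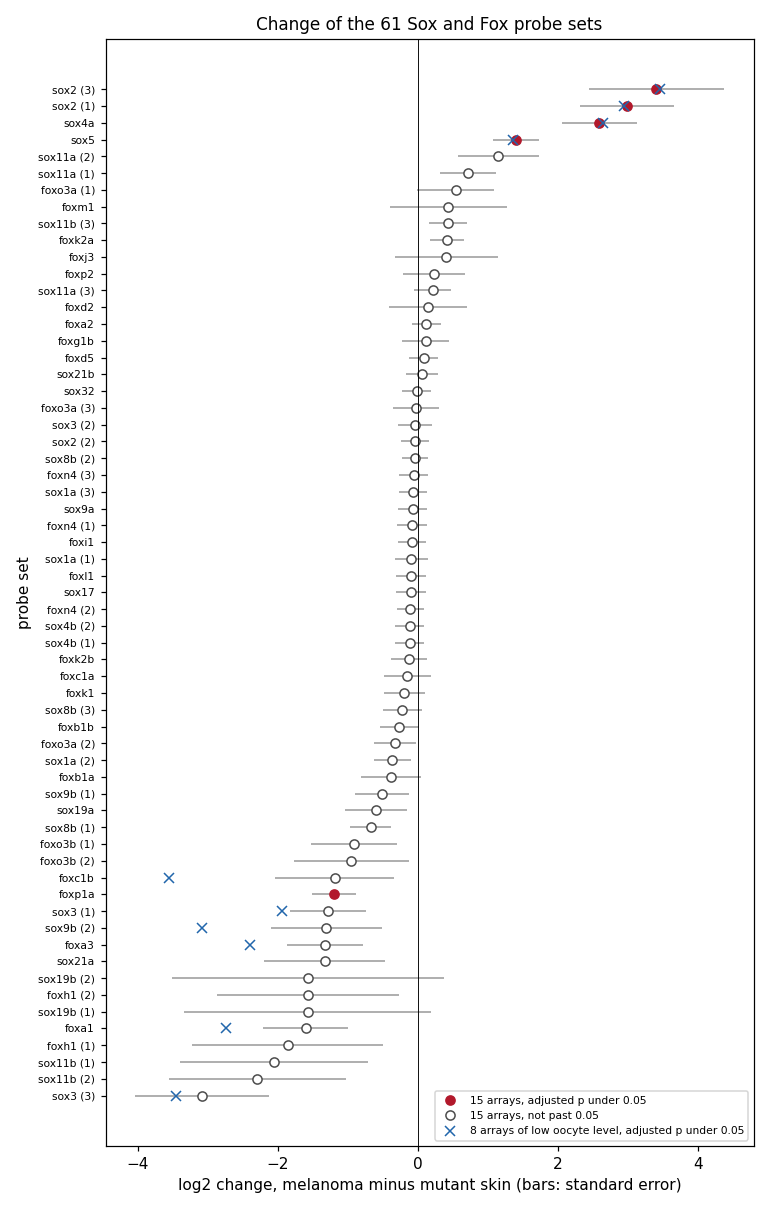
Log2 change of each member probe set in melanoma minus mutant skin (horizontal axis, bars: standard error), ordered by size, with filled points past adjusted p 0.05 and crosses for the changes past it in the 8 arrays of low oocyte level. The 4 filled points on the right are sox2, sox4a and sox5, the one on the left is foxp1a, and crosses without a filled point mark sox3, foxc1b, sox9b, foxa1 and foxa3.

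The second comparison set melanoma against wild-type skin, with the same melanoma arrays as before. Again sox2 and sox4a rose, and foxb1a fell. In all, 3 of 61 member probe sets rose (4.92%) and 1 fell (1.64%), beside 7.46% and 6.36% over all probe sets (13.8% in either direction). Without overlap between the groups, 3 members lay higher and 5 lower in melanoma, beside 7.59% and 8.37% over all probe sets. The median change of the members was -0.32, and that of all probe sets -0.13.

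The change of sox4a was 3.24 ± 0.66 (9.46-fold, adjusted p = 0.00588), and all 6 melanomas lay above the 3 wild-type arrays. For sox2 it was 3.19 ± 0.82 in probe set 1 (9.11-fold, adjusted p = 0.0187), where all 6 also lay above. In probe set 3 it was 3.85 ± 1.18 (14.4-fold, adjusted p = 0.0431), with melanoma 6 under the wild-type arrays. Each sox2 call was lost without any 1 of the 3 wild-type arrays, with adjusted p up to 0.0790 and 0.154. For probe set 3 the call was lost in 14 of 24 alternatives, among them quantile normalization (0.0587), the oocyte covariate (0.0657) and leaving out any 1 of melanoma 1 to 5. The sox4a call was lost without the 7 arrays of high oocyte level (0.116), which leaves wild-type skin 3 alone in its group. The change of sox5, 0.75, did not pass (adjusted p = 0.25).

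The gene foxb1a is known from the neural tube. It was at 2.2 and 1.79 in wild-type skin 2 and 3, at -0.24 in wild-type skin 1 and between -0.96 and -0.52 in the 6 melanomas, all under the wild-type arrays. Mutant skin lay between -1.18 and -0.24, apart from mutant skin 3 at 1.16. The change against wild-type skin was -2.01 ± 0.52 (adjusted p = 0.02). It was lost without wild-type skin 2 or 3 (adjusted p up to 0.135). The neural and glial list, with 17 probe sets of 13 genes, had a level of 0.67, 0.45 and 1.53 in wild-type skin 1 to 3 and between -0.42 and 0.18 in the melanomas. In it 1 probe set rose (sypa, a synaptic vesicle gene, 3.81 ± 0.77) and 5 fell, such as mbpa of myelin (-6.49 ± 1.11). Over all probe sets 7.46% rose and 6.36% fell. The median change of the list was -0.64, beside -0.13 over all probe sets. Its part in the fall of foxb1a was not tested. The copy foxb1b had a change of -0.73 ± 0.34 (adjusted p = 0.18), with all 6 melanomas under the 3 wild-type arrays.

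The third comparison set mutant skin against wild-type skin, which share the label skin and differ in genotype and in nearness to a tumour. By limma 0 of 61 member probe sets passed, and over all probe sets 0.0258% were raised and 0.168% lowered. At an unadjusted p under 0.05 there were 5 of the 61, beside 1112 of all 15502 probe sets. Without overlap, foxk2a lay higher and sox5 lower in mutant skin, beside 1.5% higher and 1.61% lower over all. The changes lay between -1.63, for foxb1a, and 1.41, for foxp1a (adjusted p = 0.405 and 0.283). With array quality weights 4 members were raised and 4 lowered, where 5.79% and 6.59% of all probe sets were, so the members lay near the background there too. Without wild-type skin 1 there was 1 raised. Wild-type skin had 3 arrays, of which 2 had a high oocyte level, and the size of difference that could be detected was not tested.

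Several members had higher values in skin than in melanoma without passing in the fit to all arrays. One was the FoxC gene foxc1b, of head and dermal mesenchyme. It was at 2.24, 1.35 and 4.03 in mutant skin 3, 4 and 5, at -0.76, -2.61 and 0.02 in mutant skin 1, 2 and 6, and at 0.54, 1.73 and 2.5 in wild-type skin 1 to 3. The melanomas lay between -1.27 and 0.44, all under the wild-type arrays, and the change against these was -2.07 ± 1.04 (adjusted p = 0.21). Within the 8 arrays of low oocyte level the change was -3.56 ± 0.55 against mutant skin (adjusted p = 0.00317) and -2.93 ± 0.73 against wild-type skin (adjusted p = 0.0249). This fit rests on 2 mutant and 1 wild-type skin array, and the error against wild-type skin assumes that the lone array varies like the other groups. The copy foxc1a was at 2.23 and 0.90 in wild-type skin 3 and 2 and between -0.63 and 0.59 in all the rest. Its change against wild-type skin was -1.17 ± 0.41 (adjusted p = 0.0723), and -1.61 ± 0.34 with the oocyte covariate (adjusted p = 0.0045).

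The SoxE gene sox9b, which acts in cartilage and neural crest, gave in its probe set 2 values of 4.14 and 2.12 in mutant skin 5 and 4. It gave 1.05, 2.68 and 2.74 in wild-type skin 1 to 3. Melanoma 4 reached 1.11 and the other melanomas lay between -1.46 and 0.44. The change against wild-type skin was -2.54 in this probe set (adjusted p = 0.098) and -1.23 ± 0.47 in the other (adjusted p = 0.0967), where all 6 melanomas lay under the wild-type arrays. With the oocyte covariate these changes were -3.20 ± 0.97 and -1.61 ± 0.44 (adjusted p = 0.0254 and 0.0167). The cartilage list, 17 probe sets of 11 genes, had 4 lowered and 1 raised against wild-type skin, beside 6.36% and 7.46% over all probe sets. Its median change was -0.48, and that of all probe sets -0.13. The one raised was the collagen gene col9a2 (6.74 ± 1.06), and the lowered ones included hapln1a of the matrix (-3.28 ± 0.72 and -3.05 ± 0.95 in 2 of its 6 probe sets). The copy sox9a was flat, between -2.05 and -1.06.

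The FoxA genes of endoderm showed a high value in the same skin array. In mutant skin 5 foxa1 was at 3.55 and foxa3 at 2.48. Mutant skin 4 and 1 followed, with 2.42 and 1.44 for foxa1 and 0.93 and 1.19 for foxa3. The melanomas lay between -1.07 and 0.27 for foxa1 and between -1.21 and -0.46 for foxa3. Against mutant skin the changes were -1.60 ± 0.61 and -1.32 ± 0.54 (adjusted p = 0.11 and 0.14) and, in the 8 arrays of low oocyte level, -2.75 ± 0.62 and -2.41 ± 0.50 (adjusted p = 0.0159 and 0.0118). The latter fit keeps only mutant skin 3 and 5 of that group. The class member foxa2 stayed between -1.87 and -0.81. Of the ionocyte list, 8 probe sets of 6 genes, 0 rose and 1 fell against wild-type skin, beside 7.46% and 6.36% over all probe sets. Its median change was -1.09 against wild-type skin and -1.04 against mutant skin, beside -0.13 and 0.0032 over all probe sets. The FoxI gene foxi1 stayed between -1.67 and -0.67.

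**Figure D4:**
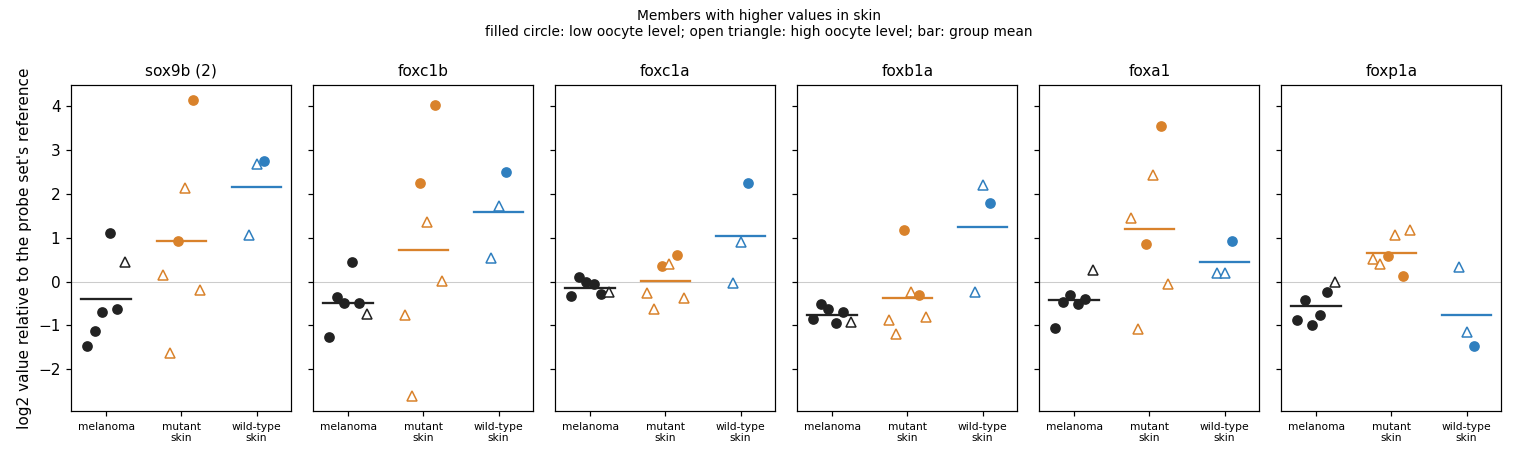
Log2 value relative to the probe set's reference (vertical axis) of 6 members with a higher mean in mutant skin than in melanoma. There is a point for each array, a bar for each group mean, and open triangles for arrays of high oocyte level. The wild-type skin mean of foxp1a (-0.77) lies under its melanoma mean (-0.55). The high points of sox9b, foxc1b and foxa1 in mutant skin belong to mutant skin 5, and foxp1a is the one member whose melanoma points all lie under the mutant skin points.

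The SoxB1 gene sox3 was annotated to 3 probe sets, of which probe sets 1 and 3 had lower means in melanoma than in either skin. Probe set 3 was between 1.17 and 5.17 in 5 mutant skin arrays, with -1.19 in mutant skin 2, and between -2.08 and 0.59 in the melanomas. Its changes were -3.08 ± 0.96 against mutant skin (adjusted p = 0.0525) and -3.15 ± 1.17 against wild-type skin (adjusted p = 0.091), and all 6 melanomas lay under the wild-type arrays. With the oocyte covariate they were -3.93 ± 0.99 and -4.00 ± 1.16 (adjusted p = 0.0152 and 0.0207). Probe set 1 had changes of -1.29 and -1.61, and with the covariate of -1.91 and -2.23 (adjusted p = 0.0210 and 0.0156). Probe set 2 stayed flat, between -0.61 and 0.75. The names of all 3 carry a cluster number of the array's design that other genes share: 10 for probe set 3, among them hapln1a and cdca8, 7 for probe set 1, and foxp1a and hnrnpaba for probe set 2. Which of them reads sox3 cannot be told from these values. Besides sox3, such sharing touched foxp1a and sox11a, and so 7 of the 61 probe sets.

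The arrays of high oocyte level raised the question of which members move with egg transcripts. The value of each probe set was fitted on the oocyte level of its array, with the group as a factor, so that a slope of 1 means that a member rises as fast as the oocyte genes do. A positive slope was found for 5 genes: the maternal factors sox19b and foxh1, then sox11b, sox21a and foxm1. Among the members 8 probe sets rose with the level (13.1%) and 11 fell (18.0%), beside 16.6% and 28.2% over all probe sets (44.9% in either direction), so the families as a whole were not above the background. With quantile normalization 8 members rose and 3 fell, beside 2552 and 2132 of all probe sets, in place of 2581 and 4375, and with median-centred arrays all probe sets split 3129 to 2635, so the falls depend on the scaling of the arrays.

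The SoxB1 factor Sox19b is laid down in the zebrafish egg and, with Pou5f3 and Nanog, opens the genome of the embryo. Its probe set 1 was at 6.24 in melanoma 6, 6.33 and 6.83 in mutant skin 2 and 6, and 6.57 and 3.66 in wild-type skin 1 and 2. It was between -1.12 and -0.22 in the other 10 arrays, mutant skin 1 and 4 included, although these had oocyte levels of 2.84 and 0.69. The second probe set had the same 5 arrays high, between 4.19 and 8.54. The slopes were 0.95 ± 0.11 (adjusted p = 1.99e-05) and 1.03 ± 0.14 (adjusted p = 6.51e-05) log2 units per unit of the level. The copy sox19a did not follow, with 0.68 in mutant skin 6, -0.90 in mutant skin 2 and its highest value, 2.00, in mutant skin 5.

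The gene foxh1 encodes the nuclear partner of Smad proteins in Nodal signalling and is also maternal in zebrafish. Its probe set 2 was at 4.96 in melanoma 6, 4.77 in wild-type skin 1, 4.96 and 5.65 in mutant skin 2 and 6, and 1.84 in mutant skin 1. In the 8 arrays of low level it lay between -0.67 and 0.10, and all 7 arrays of high level lay above these. The slope was 0.72 ± 0.069 (adjusted p = 1.72e-06), and 0.76 ± 0.071 in the other probe set. In that other probe set 6 of the 7 lay above all 8, while mutant skin 4 (-0.60) lay under mutant skin 3 (-0.55), an array of low level.

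The SoxC gene sox11b gave the closest relation. Its probe set 2 was at 3.91 in melanoma 6, 3.82 and 4.78 in mutant skin 2 and 6, 4.00 in wild-type skin 1, 2.64 in mutant skin 1, 1.66 in wild-type skin 2 and 0.14 in mutant skin 4. In the other 8 arrays it lay between -2.37 and 0.11, so the 7 arrays stood above them. The slopes of this and a second probe set were 0.73 ± 0.051 (adjusted p = 5.59e-08) and 0.75 ± 0.066. In the second, 6 of the 7 arrays stood above the other 8, while mutant skin 4 (-0.51) lay under wild-type skin 3 (-0.07). Probe set 3 did not follow and stayed between -0.96 and 0.74. Probe set 1 of its copy sox11a was at -0.11, 0.15, 0.53, 1.65, 1.35 and -0.60 in melanoma 1 to 6 and between -0.93 and 0.67 in skin. The slopes of sox11a went the other way, at -0.17 ± 0.044, -0.18 ± 0.075 and -0.07 ± 0.036 in probe sets 1 to 3. Only probe set 1 passed (adjusted p = 0.00706, beside 0.0603 and 0.0972), a call that was lost with quantile normalization (0.0929). With the probe sets averaged before the test, the slope of sox11a was -0.14 (adjusted p = 0.0263).

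The SoxB2 repressor gene sox21a was at 4.46 and 3.68 in mutant skin 2 and 6 and 2.96 in melanoma 6, and at 1.08 and 1.04 in wild-type skin 1 and mutant skin 4. It lay between -0.69 and 0.20 in the other 10 arrays. Its slope was 0.40 ± 0.084 (adjusted p = 0.00184), and its copy sox21b stayed between -0.66 and 0.40.

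The gene foxm1 encodes a driver of mitotic transcription. It was at 2.34 in melanoma 6, 2.12 and 2.47 in mutant skin 2 and 6 and 1.66 in wild-type skin 1. Melanoma 5 and 4 followed with 1.17 and 0.59, and the lowest values were -1.86 in wild-type skin 3 and -1.54 in each of mutant skin 4 and 5. The slope was 0.37 ± 0.088 (adjusted p = 0.0043), and the change in melanoma was 0.43 ± 0.84 against mutant skin (adjusted p = 0.83). The mitotic list, 29 probe sets of 19 genes, had 24 raised with the oocyte level and 0 lowered, beside 16.6% and 28.2% over all. In melanoma against mutant skin it had 1 raised and 0 lowered, beside 6.44% and 4.35% over all probe sets. Its median change there was 0.32, beside 0.0032 over all probe sets. The one raised was mybl2b, the MYB-family gene (2.1 ± 0.52). So foxm1 and the level of the mitotic list were highest in melanoma 6, mutant skin 2 and 6 and wild-type skin 1, the arrays of highest oocyte level. In mutant skin 1 and wild-type skin 2, of high oocyte level too, foxm1 was at -1.24 and -0.52. The part of egg transcripts in foxm1 and the mitotic genes was not tested.

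**Figure D5:**
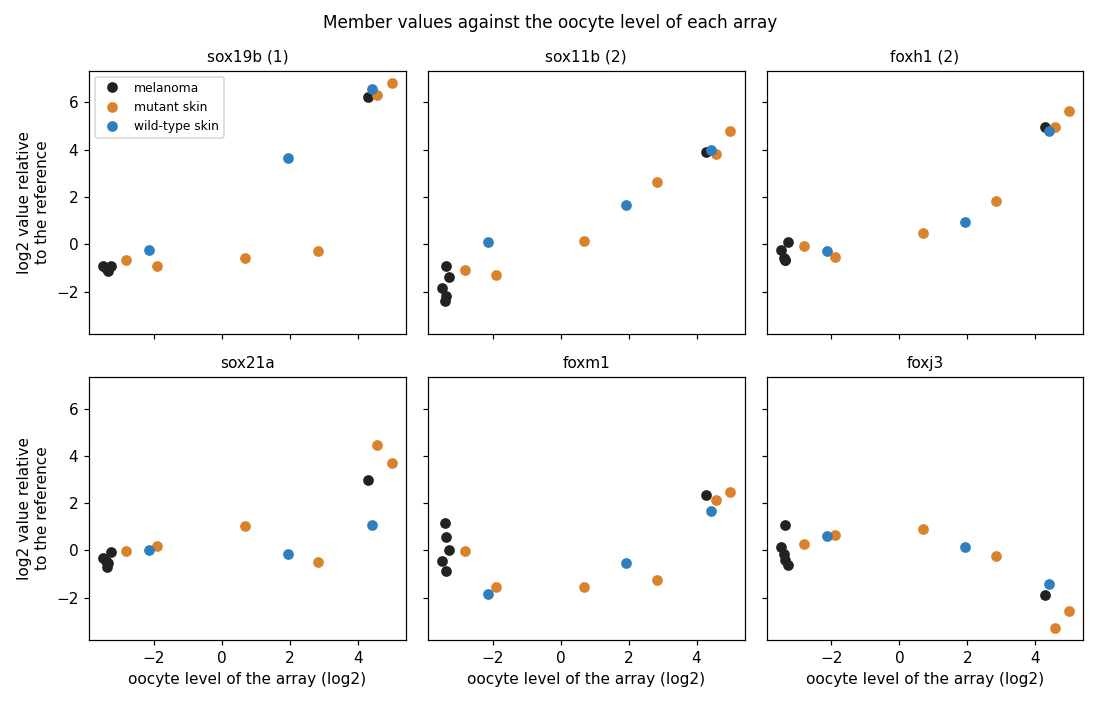
Log2 value relative to the probe set's reference (vertical axes) of 6 members against the oocyte level of the array (horizontal axes), with a point for each of the 15 arrays, coloured by group. sox11b and foxh1 climb across the 7 arrays of high level, sox19b is high in 5 arrays and low in mutant skin 1 and 4, and foxj3 is lowest where the level is highest.

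With the oocyte level 9 member genes fell. The steepest of those with 1 probe set were foxj3, a forkhead gene of the FoxJ class (-0.34 ± 0.071, adjusted p = 0.00174), and foxc1b (-0.33 ± 0.10, adjusted p = 0.0155). For foxj3 the values were -3.28 and -2.57 in mutant skin 2 and 6, -1.88 in melanoma 6 and -1.43 in wild-type skin 1, against -0.60 to 1.08 in the other 11 arrays. The FoxO gene foxo3b, whose product is held in the cytoplasm by insulin signalling, fell in both probe sets (-0.21 ± 0.077 and -0.33 ± 0.094, adjusted p = 0.0371 and 0.0123). The call of probe set 1 was lost in 10 of 22 alternatives, both other scalings included (adjusted p = 0.110 and 0.102). Probe set 2 was at -3.37 in melanoma 6, -3.18 in mutant skin 6 and -2.23 in wild-type skin 1, under all other arrays. Mutant skin 2 and 4, of high oocyte level too, were at -0.98 and 1.67, the latter the highest value of all arrays. None of the 3 probe sets of its copy foxo3a passed. The FoxD gene foxd2 was at -0.59, -0.29, 0.25, 1.86, 1.23 and -0.39 in melanoma 1 to 6, at 0.05, -1.38, 0.94, 0.20, 1.82 and -0.42 in mutant skin 1 to 6, and at 0.43, 1.01 and 2.19 in wild-type skin 1 to 3. Its groups overlapped, with the lowest value in mutant skin 2, and its slope was -0.22 ± 0.064 (adjusted p = 0.0124), lost with quantile normalization (0.0824). The others that fell were foxc1a, foxb1a, sox11a, sox2 and sox5. The falls of sox2 and sox5 were lost without melanoma 6 (adjusted p up to 0.254), and those of foxb1a and foxc1a when each array was centred on its median. With quantile normalization the falls of all these genes were lost, and only foxj3, foxc1b and foxo3b probe set 2 kept theirs.

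Markers of ovary cells other than the oocyte gave a weaker picture. Of the granulosa and steroid cell list, 12 probe sets of 10 genes, 2 rose and 1 fell with the oocyte level, beside 16.6% and 28.2% over all. Both that rose were probe sets of cyp17a1, a steroid enzyme (slopes 0.80 and 0.17). The motile cilium list, 15 probe sets of 13 genes, had 1 raised and 1 lowered with the level and none past the threshold in melanoma against either skin. Of the endothelial list, 7 probe sets of 6 genes, 6 fell with the oocyte level, where 28.2% of all probe sets fell in the same fit. The falls over all probe sets depend on the scaling, and the list was not counted under another scaling. In melanoma against mutant skin 1 of the list fell, the lymphatic receptor gene flt4 (-0.78 ± 0.24), beside 4.35% of all probe sets. The SoxF genes sox17 and sox32, whose group acts in endoderm and vessels, stayed within 1.15 log2 units over all arrays.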

How the data were processed

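The deposited values are log2 values of 15 arrays, and the submitters' processing notes name GCRMA, a background correction and normalization, without a version. The reference level per probe set that the authors used is not given in the sources used here. Some arrays reach a floor of -6.64, but 0 member values do. From 15617 probe sets 115 controls were left out, with no filter on low values. Of the rest, 10795 carried 1 gene symbol.

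limma 3.58.1 in R 4.3.3 (lmFit, eBayes, 12 residual degrees of freedom before moderation) was fitted to 15502 probe sets and 15 arrays, and tested on simulated data. Each contrast was two-sided with Benjamini-Hochberg adjustment over all probe sets at 0.05. Errors are standard errors. For the oocyte level, each of 24 genes was centred on its own mean, and the centred values were averaged per array. An array counts as high when it exceeds the lowest one by over 3 log2 units. Other lists were scored alike, and counted by probe set.

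Members, lists and alternatives were chosen with earlier results of these data known. Values by sample or range are given for member genes past 0.05 in a comparison or in the slope, with their other probe sets and copies. Most other members are given by range or count. Some without a call, such as foxa1, foxa3, sox9b, sox3, foxk2a, foxp2 and foxg1b, are also given by sample. These were picked for their values and not by a rule set beforehand. Of each list up to 3 genes past 0.05 are named for a comparison, and further genes of the oocyte list were picked to describe mutant skin 3. The labels do not say that samples came from separate fish, so p-values measure the spread between samples. Alternatives were scaling, array weights, trend and robust moderation, gene means, the title number as a block, 2 groups only, the oocyte level and leaving out arrays. Plots used matplotlib 3.10.9 in Python 3.11.15.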

Additional observations from a re-analysis of the deposited data

Results flagged for a closer look

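In 21 member probe sets with a call, the 6 melanoma and the 6 mutant skin values were each examined for 1 value far from the rest. Of these 42 groups 7 held one, by Dixon's test at the level that chance passes in about 1 group in 20, and each of the 7 was melanoma 6. All 7 lie in probe sets called for a rise with the oocyte level, and melanoma 6 was the only melanoma of high level. The choice of probe sets therefore favoured this array. The groups also share arrays, so the count of 7 cannot be set against that rate. For foxh1 it was at 4.50 and 4.96, with the next melanoma at -0.89 and 0.10. For sox11b it was at 3.84 and 3.91, with the next at -0.77 and -0.90. For sox19b it was at 6.24 and 7.89, with the next at -0.90 and -0.28. For sox21a it was at 2.96, with the next at -0.06. The same array had an oocyte level of 4.29 and a melanocyte level of 0.080, against -3.48 to -3.27 and 2.21 to 3.03 in the other 5 melanomas. Without melanoma 6 the slopes on the oocyte level were 0.78 and 0.74 for foxh1, 0.77 and 0.72 for sox11b, 0.96 and 0.97 for sox19b and 0.38 for sox21a, by limma all past the threshold (adjusted p up to 0.0149).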

How the results depend on the processing

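No called change or slope of a member turned its sign in an alternative. The member counts below are out of 61. In melanoma against mutant skin, the count of 4 raised probe sets was 3 or more in each alternative. Over all probe sets the share raised lay between 3.61% (without mutant skin 1) and 16.3% (array weights). Probe set 3 of sox2 lost its call in 12 of 24 alternatives. The count of 1 lowered became 2 with quantile normalization, with median-centred arrays and with the replicate block (samples blocked by the number in their titles). Over all probe sets these settings lowered 6.47%, 5.46% and 6.78%. The count became 5 with array weights, 6 with the oocyte covariate and 6 without the 7 arrays of high level. Over all probe sets these lowered 11.4%, 9.27% and 9.79%. When 1 array was left out the count was 0 to 5. It was 0 without mutant skin 1 or 4 or melanoma 1, 3 or 4, where 2.79% to 3.25% of all probe sets were lowered. It was 5 without mutant skin 2 (6.64% over all). In melanoma against wild-type skin, the 3 raised became 11 with array weights (where 30.2% of all probe sets were raised and 24.9% lowered). With 1 array left out they were 1 to 4 (1 without wild-type skin 2 or 3, where 2.81% and 3.26% of all were raised). The 1 lowered became 2 with quantile normalization, 3 with centred arrays, 4 with the block and 5 with the 2 groups only. Over all probe sets these settings lowered 7.46%, 7.39%, 8.30% and 7.73%. The count became 16 with array weights and 11 with the covariate (14.6% over all). With 1 array left out it was 0 to 3 (0 without wild-type skin 2 or 3, 3 without wild-type skin 1 or mutant skin 5). The fit without the 7 arrays leaves 1 wild-type array and is not counted here. In mutant against wild-type skin, the 0 raised and 0 lowered became 4 and 4 with array weights (5.79% and 6.59% over all). Without wild-type skin 1, 1 was raised (0.0581% over all). With the level, the 8 raised became 4 with the block, where 2.65% of all probe sets were raised (foxh1 and sox11b kept their calls, sox19b, sox21a and foxm1 did not). The 11 lowered became 3 with quantile normalization, 19 with array weights and 0 with the block. Over all probe sets these settings lowered 13.8%, 40.0% and 0.555%. The cause of these shifts was not tested. Pairing by title number was neither stated nor shown for every pair: 4 of 6 pairs of melanoma and mutant skin correlated above 0.1 and 3 of 6 melanomas correlated best with their own number. The unstated reference level hides which signals lie near background, and a flat probe set may be one that does not respond.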

Other observations

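Mutant skin 3, an array of low oocyte level (-2.81), had high values of some germ cell genes but not of others. The piRNA pathway gene piwil1 was at 2.79 and 2.45 in its pair of probe sets and the germ granule gene ddx4 at 2.79, while the egg coat gene zp3b was at -0.91 and buc at -0.64. Other germ cell genes of the oocyte list were lower in this array, with piwil2 at 0.99, dazl at 0.36 and nanos3 at -0.15. The motile cilium level of mutant skin 3, 1.35, and its granulosa and steroid cell level, 0.89, were the highest of the 15 arrays. This array held the highest value of sox1a probe set 2, 0.89, and of sox8b probe set 3, 1.18, but not of their other probe sets. There sox19b was at -0.67 and -0.25 and foxh1 at -0.55 and -0.05.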
